A study of Mus musculus with 3 samples.

Results

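Chromatin accessibility was examined at 46 mouse genes of chromosome segregation, listed by gene name with earlier results of these data known. The subgroups were the spindle checkpoint (8), the kinetochore (9), the centromere (13) and the spindle motors and spindle assembly (9). The last was the anaphase-promoting complex with its activators, securin and separase (7). The members are 46 of the 21887 protein-coding genes in the reference table. For each gene and library, counts in peaks within 1 kb of either gene end were summed and scaled to 1000000 counts in regions called as peaks in all 3 libraries (CPM below).

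The assay was ATAC-seq on single nuclei: the Tn5 transposase inserts adapters into open chromatin, and insertions are counted for each barcode. The study made mouse brain tumors by in utero electroporation of piggyBac transposons, and its title concerns mutant IDH, binding of PDGFB to chromatin and chromosome instability. PDGFB is a secreted growth factor that acts through PDGF receptors. Each of 3 groups had 1 library: a Control, tumors that overexpressed PDGFB-WT and tumors that overexpressed PDGFB-NLS. All 3 are labelled glioma. The labels name no IDH genotype, promoter, age or number of animals for these libraries, and do not say what the Control carried. With 1 library per group there was no replicate and therefore no test. Differences are given as log2 ratios with exact 95% intervals, and these cover counting error only.

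The libraries differed in depth. After removal of barcodes under 200 counts, they held 2226 (Control), 7441 (PDGFB-WT) and 10996 (PDGFB-NLS) barcodes, with medians of 13054, 821 and 2767.5 counts. Total counts were 31588784, 7008951 and 31177621. Peaks were called in each library on its own and numbered 107627, 57616 and 127094. Between 66 and 162 barcode sequences per library also occurred in another library. Each ratio was taken relative to the median of all compared genes, those with at least 100 counts in both libraries. Before that step the all-gene median was -0.17 in the comparison of PDGFB-WT with Control, -0.01 in that of PDGFB-NLS with Control and 0.14 between PDGFB-NLS and PDGFB-WT. The Control library enters the first 2 comparisons and the PDGFB-WT library the first and the third, so the 3 are not independent.

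The kinetochore is the protein assembly that joins each chromosome's centromere to spindle microtubules. Until every kinetochore is attached, the spindle checkpoint blocks Cdc20, the activator of the anaphase-promoting complex, a ubiquitin ligase that marks securin and cyclin B for destruction. Motors and the Aurora and Polo kinases build the spindle and correct faulty attachments. Most of these genes are transcribed in G2 and mitosis, and many of their promoters hold a cell cycle genes homology region (CHR), bound by the MuvB complexes, together with CCAAT boxes, bound by NF-Y.

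The promoters of representative members are printed below, 130 bases before and 30 bases after the annotated start, from RefSeq on GRCm38.p6. Capitals mark CHR matches (TTTGAA or TTCGAA) and CCAAT matches on either strand. The first 6 are shown for their arrangement, 1 CHR near the start with at least 1 CCAAT upstream of it, in genes of the checkpoint, kinetochore, centromere and anaphase-promoting complex.
Bub1, chr2:127831830-127831989, minus strand: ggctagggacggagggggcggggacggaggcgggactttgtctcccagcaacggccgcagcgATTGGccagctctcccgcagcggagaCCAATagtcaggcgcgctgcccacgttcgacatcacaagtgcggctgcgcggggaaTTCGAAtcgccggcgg
Ttk, chr9:83834559-83834718, plus strand: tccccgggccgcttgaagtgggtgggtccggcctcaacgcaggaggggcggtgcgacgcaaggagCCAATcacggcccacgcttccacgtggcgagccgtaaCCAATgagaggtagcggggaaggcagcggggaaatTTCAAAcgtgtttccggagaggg
Spc25, chr2:69206184-69206343, minus strand: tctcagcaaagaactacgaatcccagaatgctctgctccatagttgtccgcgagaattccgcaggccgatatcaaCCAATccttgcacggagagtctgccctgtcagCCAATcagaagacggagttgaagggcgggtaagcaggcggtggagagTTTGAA
Cenpa, chr5:30666756-30666915, plus strand: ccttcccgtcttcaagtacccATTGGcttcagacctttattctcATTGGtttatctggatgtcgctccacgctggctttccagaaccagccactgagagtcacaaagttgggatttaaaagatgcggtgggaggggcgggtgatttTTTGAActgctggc
Cdca8, chr4:124936888-124937047, minus strand: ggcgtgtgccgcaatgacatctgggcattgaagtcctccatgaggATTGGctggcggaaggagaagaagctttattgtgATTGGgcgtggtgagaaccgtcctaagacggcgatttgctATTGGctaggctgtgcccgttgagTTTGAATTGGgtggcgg
Cdc20, chr4:118437314-118437473, minus strand: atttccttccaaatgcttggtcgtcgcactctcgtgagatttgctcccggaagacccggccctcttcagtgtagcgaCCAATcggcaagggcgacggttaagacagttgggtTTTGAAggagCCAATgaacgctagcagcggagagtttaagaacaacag
The next sequences belong to the members with the highest and the lowest PDGFB-WT against Control ratio, and neither motif occurred in this window.
Nuf2, chr1:169531435-169531594, minus strand: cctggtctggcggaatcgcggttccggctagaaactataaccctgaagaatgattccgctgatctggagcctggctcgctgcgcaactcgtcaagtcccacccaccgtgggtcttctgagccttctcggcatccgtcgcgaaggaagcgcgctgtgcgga
Pttg1, chr11:43425952-43426111, minus strand: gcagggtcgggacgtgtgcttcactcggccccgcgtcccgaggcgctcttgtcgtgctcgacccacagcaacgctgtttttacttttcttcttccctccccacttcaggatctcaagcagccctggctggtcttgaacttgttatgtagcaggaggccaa

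In Bub1 the CHR began at position 15 and in Ttk at position 8, counting from 1 at the annotated start. The CHR of Cenpa began at position 17 and that of Cdca8 at position 14, where it overlapped a CCAAT match by its last base. In Cdc20 it lay upstream, at position -18. These places fall within the accessible region, because each of these starts was covered by a peak in all 3 libraries.

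Of the 46 members, 42 had a promoter entry of 300 bases (250 before the start and 50 after); Spc24, Incenp, Aurkb and Tpx2 had none. A CHR match within 50 bases of the start was found in 19 of 42 members (45.2%), against 4.42% of 17492 promoters. The other genes of the pathway, listed with the values below, had one there in 29 of 72 (40.3%). Farther upstream in the entry, 3 members (7.14%) held one, against 22.2% of the other pathway genes and 14.5% of all promoters. CCAAT occurred in 27 members (64.3%; all promoters 39.2%). A CHR together with CCAAT was found in 17 members (40.5%; all promoters 7.47%). The E2F words TTTCGCGC, TTTGGCGC, TTTCCCGC and TTTGCCGC, read on both strands, occurred in Dsn1 and Kif18a, 4.76% of members against 2.94% of promoters. The members' promoters were also richer in CpG, with a median observed over expected ratio of 0.85 against 0.58. A match is a run of letters and was not tested as a binding site.

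A peak covered the annotated start of 40 of the 42 members (95.2%) in all 3 libraries, against 53.6% of all starts. The exceptions were Kif2c, a kinesin that depolymerises microtubules, and Sgo2a, a shugoshin that protects centromeric cohesion. Kif2c had its peak within 1 kb of an outer end of the gene. The start of its promoter entry lies inside the gene's outer bounds, and the entry had a CpG ratio of 0.12, the lowest of the members. Sgo2a had a peak at a further annotated start inside the gene, with 47.4 CPM in Control, 39.7 for PDGFB-WT and 53.8 for PDGFB-NLS. Sgo1, the other shugoshin, had 97.1, 87.4 and 97.0 CPM at its start, which lies inside the gene's outer bounds. These 2 shugoshin genes were the members without a peak within 1 kb of an outer end, so 44 of 46 (95.7%) enter the values that follow, against 58.9% of all genes with such a peak in all 3 libraries.

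**Figure D1:**
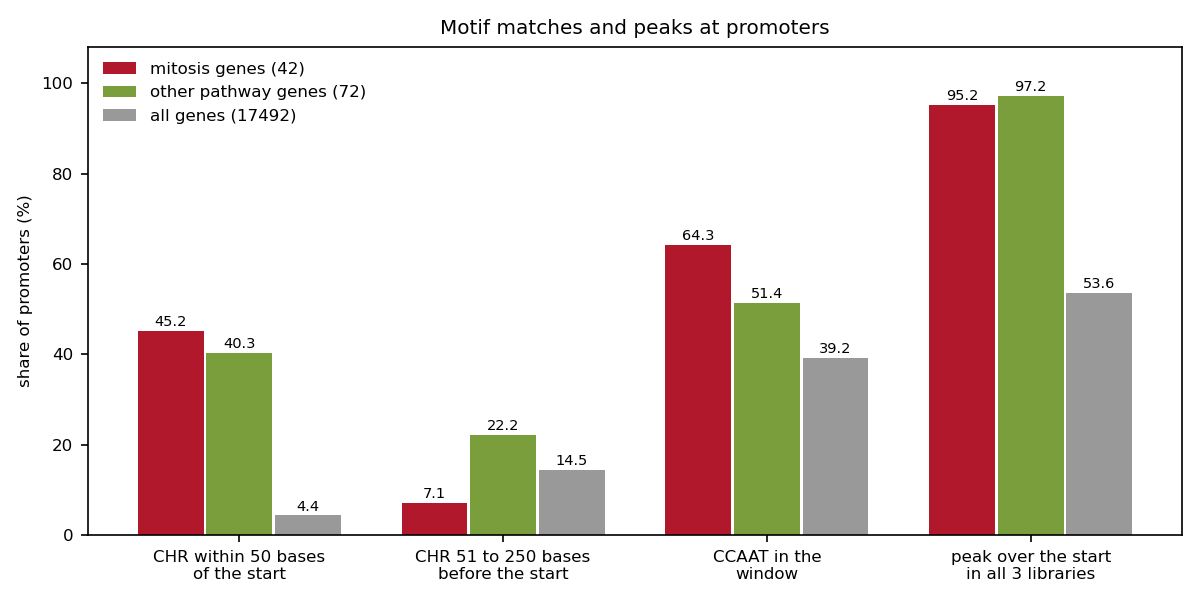
Share of promoters (%, vertical axis, from 0) with a CHR match within 50 bases of the start, a CHR match more than 50 bases before it, a CCAAT match in the 300-base window, and a peak over the start in all 3 libraries. Bars are the 42 mitosis genes, 72 other genes of the pathway and all 17492 genes with a promoter entry; the near CHR stands at 45.2% in the mitosis genes and 4.42% in all genes.

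The members were open in every library. Their median level was 64.3 CPM per kb of peak in Control, 55.1 for PDGFB-WT and 61.9 for PDGFB-NLS. All genes with a peak had medians of 33.6, 38.3 and 32.0. Per kb, Mis12, a scaffold subunit of the outer kinetochore, was the highest member in each library (181, 178 and 161), and its peak is shared with the neighbouring gene Derl2. Among the lowest were Aurkb, the kinase of the chromosomal passenger complex (19.6, 25.9 and 20.3), and Plk1, the Polo kinase of mitotic entry (24.4, 26.1 and 28.1). Counts behind a single member ran from 547 to 4597 in Control, from 134 to 1121 in PDGFB-WT and from 635 to 4148 in PDGFB-NLS, so that intervals are widest where PDGFB-WT is involved. Of the members, 12 (26.1%) had a peak that also lies within 1 kb of another gene's end, so that the signal of the 2 genes cannot be told apart there.

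Summed over the 44 members, the PDGFB-WT library stood below the other two. The sum was 2965 CPM in Control (2936 to 2994), 2555 for PDGFB-WT (2502 to 2609) and 2949 for PDGFB-NLS (2919 to 2979). The centromere subgroup had 729 CPM in Control, 584 for PDGFB-WT and 732 for PDGFB-NLS. The spindle motor and assembly subgroup had 575, 484 and 572. Checkpoint genes had 559, 505 and 555, kinetochore genes 655, 596 and 644, and the anaphase-promoting complex 448, 387 and 445. The PDGFB-WT value was the lowest in each subgroup on this scale. The all-gene median of -0.17 in PDGFB-WT against Control is not taken off here, so a typical gene was lower there too. Relative to that median, the subgroup medians were -0.12 for the centromere and -0.11 for the spindle motors and assembly. They were -0.06 for the checkpoint, 0.07 for the kinetochore and -0.15 for the anaphase-promoting complex. On a second scale, per 1000000 fragments at the ends of all genes, the members took 4794 in Control (4747 to 4842), 4696 for PDGFB-WT (4599 to 4795) and 4821 for PDGFB-NLS (4773 to 4871), and there the PDGFB-WT interval overlapped both others.

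**Figure D2:**
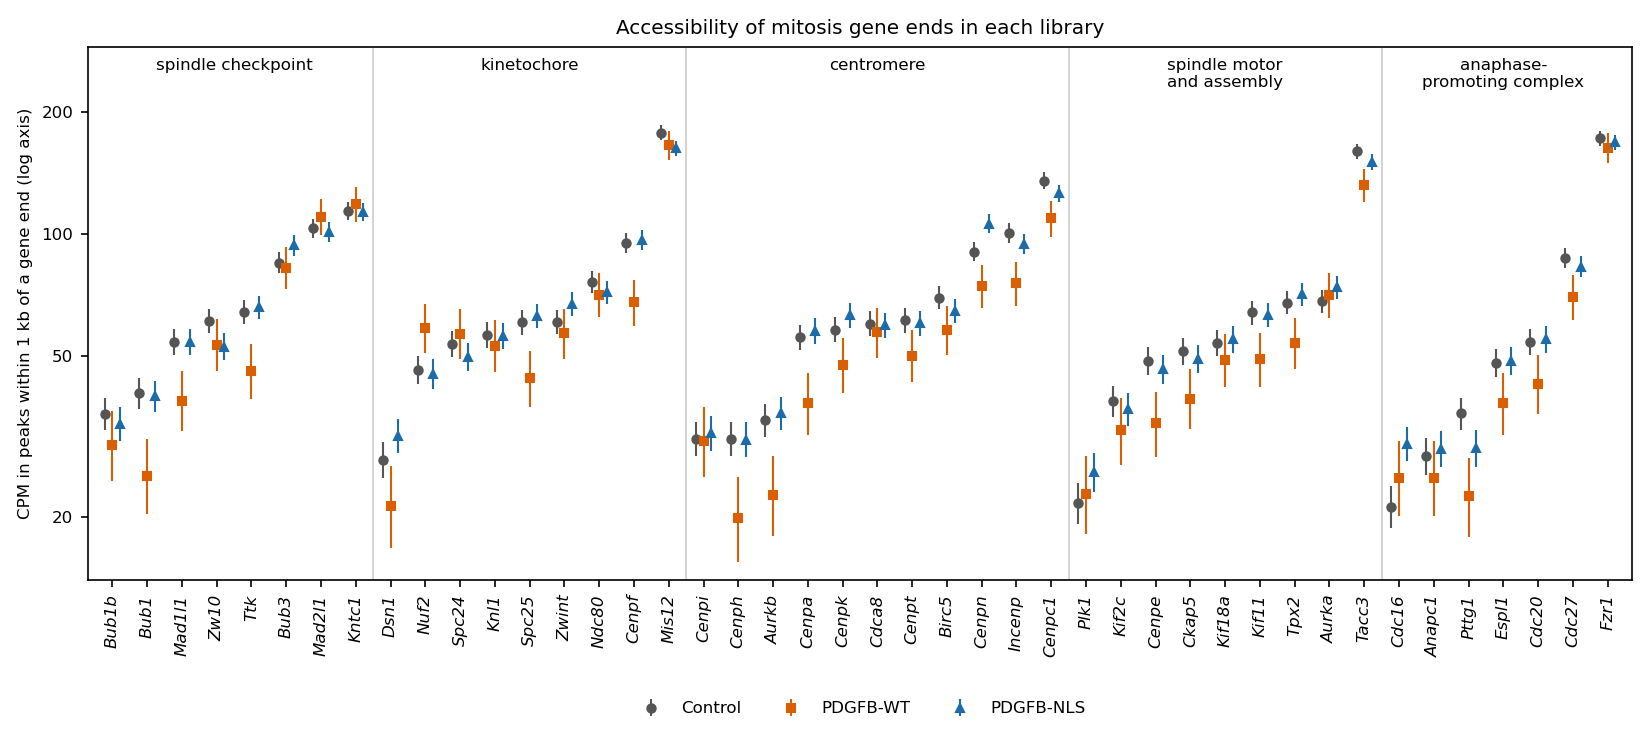
Counts in peaks within 1 kb of a gene end, as CPM on a log axis, for the 44 members with such a peak, by subgroup and sorted by their level. Points are the libraries (Control grey circles, PDGFB-WT orange squares, PDGFB-NLS blue triangles) and bars are exact 95% Poisson counting intervals; Bub1, Cenph, Aurkb, Cenpa and Pttg1 are lowest in PDGFB-WT, and Nuf2 is highest there.

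PDGFB-WT was compared with Control to see how these loci differed with overexpression of PDGFB. Relative to all genes the members lay slightly low, with a median log2 ratio of -0.11 and a range of -0.51 to 0.51. Above the all-gene median were 16 of 44, against 50% of 10858 genes. Differences were counted from a log2 ratio of 0.322 in either direction, which is 25% higher or 20% lower. Past that size, 2 members were higher (Nuf2 and Cdc16; 14.1% of all genes) and 6 were lower (Pttg1, Bub1, Cenph, Aurkb, Cenpa and Cenpe; 11.8% of all genes). Together these 8 are 18.2% of the members, below the 25.9% of all genes past that size. No member passed 1.5-fold, against 8.88% of all genes. The members had a median of 59.1 CPM in Control and 49.6 in PDGFB-WT. All genes with a peak had 40.5 and 40.8. The part of counting error in these shares was not tested.

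PDGFB-NLS and Control were close at these genes. The members' median was 0.00 and their SD 0.13, against 0.32 over 13471 genes. The narrow spread was not particular to the members, as the other genes of the pathway had an SD of 0.14. All compared genes also include genes with as few as 100 counts, fewer than any member had in these 2 libraries. A single member, Cdc16, was higher past 0.322 (12.4% of all genes), and none was lower (6.38% of all genes). That is 2.27% of the members, where 18.7% of all genes were past this size in either direction. None passed 1.5-fold, against 7.71% of all genes.

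Between the overexpression groups, PDGFB-NLS lay above PDGFB-WT at most members. The median ratio was 0.10, and 32 of 44 were above the all-gene median, against 50% of 10864 genes. Past 0.322, 10 members were higher in PDGFB-NLS (Aurkb, Bub1, Cenph, Cenpa, Dsn1, Ttk, Spc25, Cenpn, Cenpf and Mad1l1; 10.9% of all genes) and 2 were lower (Nuf2 and Spc24; 11% of all genes). The 12 are 27.3% of the members, near the 22% of all genes past this size in either direction. None passed 1.5-fold, against 5.55% of all genes.

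**Figure D3:**
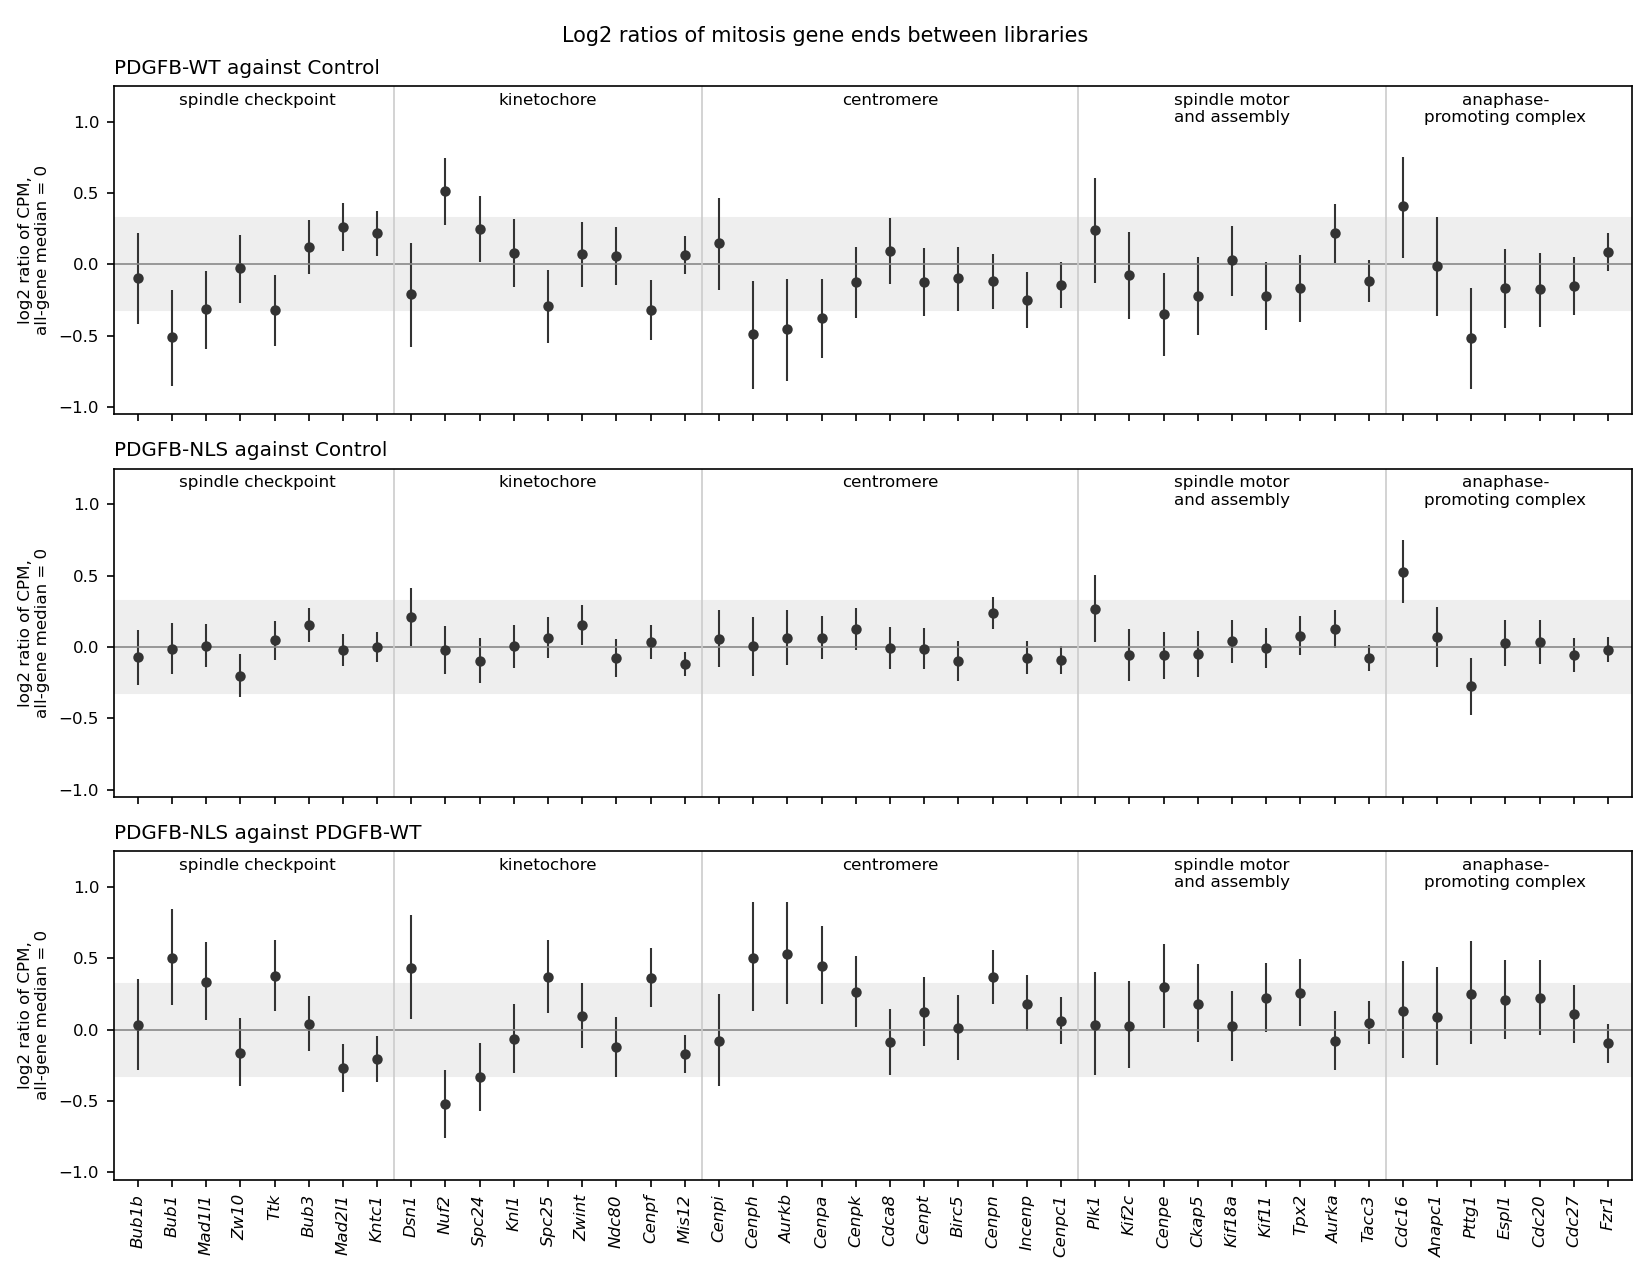
Log2 ratio of CPM for each member (vertical axis, 0 is the median of all compared genes) in the 3 comparisons, by subgroup. Bars are exact 95% counting intervals and the grey band spans 0.322 either way; in PDGFB-NLS against Control all members but Cdc16 lie inside the band.

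**Figure D4:**
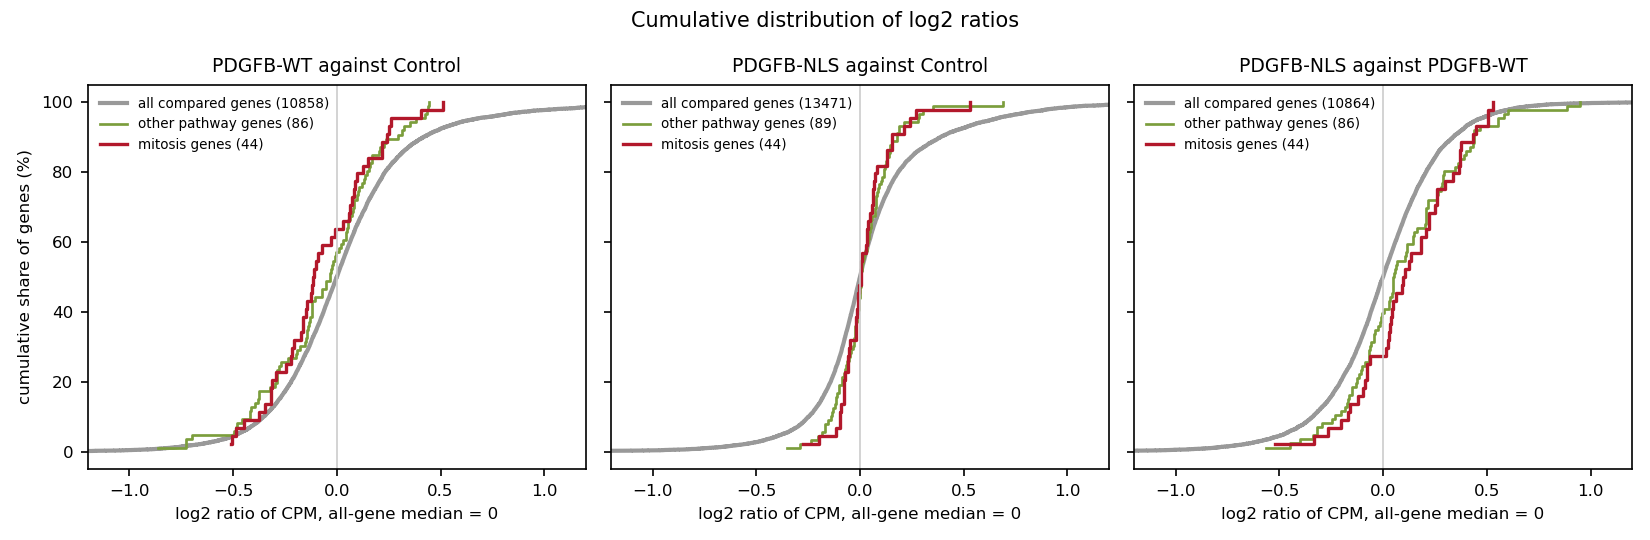
Cumulative share of genes (%, vertical axis) against the log2 ratio of CPM (0 is the all-gene median) in each comparison, for the mitosis genes (red), the other genes of the pathway (green) and all compared genes (grey). The red curve is steeper than the grey one in PDGFB-NLS against Control, where the SDs are 0.13 (red), 0.14 (green) and 0.32 (grey).

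Among the spindle checkpoint genes, Bub1 was lower in PDGFB-WT than in Control past 0.322, Ttk lay just short of that size, and Mad2l1 lay above the all-gene median. Bub1, the kinase that recruits checkpoint proteins to the kinetochore, had 40.4 CPM in Control, 25.3 for PDGFB-WT and 39.7 for PDGFB-NLS. Its PDGFB-WT value was below both others with no overlap of the intervals, which ended at 31.2 in PDGFB-WT and began at 37.0 in Control. The log2 ratio was -0.51 (-0.85 to -0.18) in PDGFB-WT against Control and 0.51 (0.18 to 0.85) in PDGFB-NLS against PDGFB-WT. Ttk, also called Mps1, which starts checkpoint signalling, had 64.4, 45.9 and 65.9 CPM in the same order. Its ratio was -0.320 (-0.57 to -0.08) for PDGFB-WT against Control, and its PDGFB-NLS against PDGFB-WT ratio was 0.38 (0.13 to 0.63).

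Mad2l1 encodes Mad2, the core of the complex that holds Cdc20. It had 103 CPM in Control, 111 for PDGFB-WT and 101 for PDGFB-NLS, and was the highest checkpoint member relative to all genes in PDGFB-WT against Control (0.26, 0.09 to 0.43). In PDGFB-NLS against PDGFB-WT it was the lowest of the subgroup (-0.27, -0.44 to -0.10). Mad1l1, which anchors Mad2 at kinetochores, had 54.2, 38.8 and 54.1 CPM, and its peak lies in reach of the neighbouring gene Nudt1 as well. Its ratios were -0.31 in PDGFB-WT against Control and 0.34 in PDGFB-NLS against PDGFB-WT.

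Bub3, which carries Bub1 to the kinetochore, had 85.0 CPM in Control, 82.5 for PDGFB-WT and 93.8 for PDGFB-NLS, and the highest checkpoint ratio in PDGFB-NLS against Control (0.15, 0.03 to 0.27). Zw10, of the complex that brings dynein to kinetochores, had 61.1, 53.3 and 52.8 CPM, and the lowest ratio there (-0.20, -0.35 to -0.05). Kntc1, from the same complex, had 114, 119 and 114 CPM, of which 96.7% lay in a peak shared with Rsrc2. Its ratio was 0.22 in PDGFB-WT against Control and -0.20 in PDGFB-NLS against PDGFB-WT. Bub1b, encoding BubR1, had 36.0, 30.1 and 34.0 CPM, with ratios between -0.09 and 0.03. The 8 checkpoint members thus spanned -0.51 to 0.26 in PDGFB-WT against Control and -0.20 to 0.15 in PDGFB-NLS against Control.

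In the kinetochore subgroup, subunits of a single complex lay on opposite sides of the all-gene median. The Ndc80 complex, which grips the microtubule, is made of Ndc80, Nuf2, Spc24 and Spc25. Nuf2 had 46.2 CPM in Control, 58.7 for PDGFB-WT and 45.1 for PDGFB-NLS, the highest value being in PDGFB-WT with no interval overlap. It had the highest ratio of all members in PDGFB-WT against Control (0.51, 0.28 to 0.75) and the lowest in PDGFB-NLS against PDGFB-WT (-0.52, -0.76 to -0.28). Spc24 had 53.6, 56.8 and 49.7 CPM, with ratios of 0.25 (0.01 to 0.48) and -0.33 (-0.57 to -0.09) in those comparisons. Its partner Spc25 had 60.5, 44.0 and 62.8 CPM, with ratios of -0.29 (-0.55 to -0.04) and 0.37 (0.12 to 0.63). Ndc80 itself, whose peak is shared with Spdya, had 76.3, 70.8 and 71.8 CPM and ratios of 0.06 and -0.12. So Nuf2 and Spc24 lay above the all-gene median in PDGFB-WT against Control, Spc25 lay below it, and Ndc80 was near it.

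Cenpf, a large protein of the outer kinetochore, had 94.96 CPM in Control, 67.9 for PDGFB-WT and 96.6 for PDGFB-NLS. It was the lowest kinetochore member in PDGFB-WT against Control (-0.317, -0.53 to -0.11), and its PDGFB-NLS against PDGFB-WT ratio was 0.36 (0.16 to 0.58). Control and PDGFB-NLS had 2 peaks at its ends and PDGFB-WT had 1, and per kb of peak these ratios changed sign, to 0.48 and -0.51. The PDGFB-NLS against PDGFB-WT ratio of Cenpf stayed past 0.322 in 12 of 17 alternative settings. Dsn1, of the Mis12 complex, had 27.7, 21.3 and 31.8 CPM, with ratios of 0.21 (0.01 to 0.42) in PDGFB-NLS against Control and 0.43 (0.08 to 0.80) in PDGFB-NLS against PDGFB-WT. Mis12 had 178, 166 and 163 CPM and the lowest kinetochore ratio in PDGFB-NLS against Control (-0.12, -0.20 to -0.03). The scaffold Knl1, which docks the Bub proteins, and its binding partner Zwint had ratios between 0.00 and 0.16 against Control. The subgroup's median in PDGFB-WT against Control was 0.07, with 6 of 9 members above the all-gene median.

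Of the centromere genes, 2 of 11 lay above the all-gene median in PDGFB-WT against Control (18.2%, the lowest share of the 5 subgroups), with a median of -0.12. Cenpa, the histone H3 variant that marks the centromere, had 55.6 CPM in Control, 38.2 for PDGFB-WT and 57.7 for PDGFB-NLS. Its PDGFB-WT value was the lowest, and the intervals did not overlap. The ratio was -0.37 (-0.65 to -0.10) in PDGFB-WT against Control and 0.45 (0.18 to 0.73) in PDGFB-NLS against PDGFB-WT. Cenph, of the constitutive network that sits on Cenpa chromatin, had 31.3, 19.9 and 31.1 CPM, with ratios of -0.49 (-0.87 to -0.12) and 0.50 (0.13 to 0.89).

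Aurkb, Incenp, Birc5 and Cdca8 encode the 4 subunits of the chromosomal passenger complex, which destabilises wrong attachments. Aurkb had 34.8 CPM in Control, 22.7 for PDGFB-WT and 36.1 for PDGFB-NLS. Its ratios were -0.45 (-0.81 to -0.10) in PDGFB-WT against Control and 0.53 (0.18 to 0.89) in PDGFB-NLS against PDGFB-WT. Control and PDGFB-NLS had 2 peaks at the ends of Aurkb and PDGFB-WT had 1, and per kb of peak both ratios changed sign, to 0.46 and -0.42. The scaffold gene Incenp had 101, 75.6 and 94.8 CPM and a ratio of -0.25 (-0.44 to -0.05) for PDGFB-WT against Control. Birc5, encoding survivin, had 69.7, 57.9 and 64.6 CPM and the lowest centromere ratio in PDGFB-NLS against Control, -0.10 (-0.23 to 0.04). Cdca8, encoding borealin, had 60.2, 57.2 and 59.5 CPM in a peak shared with 9930104L06Rik, with ratios of 0.09 in PDGFB-WT against Control and -0.09 in PDGFB-NLS against PDGFB-WT. In PDGFB-WT against Control the passenger genes thus ran from -0.45 to 0.09.

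Cenpn, which reads Cenpa nucleosomes, had 90.6 CPM in Control, 74.4 for PDGFB-WT and 106 for PDGFB-NLS. It was the highest centromere member in PDGFB-NLS against Control (0.24, 0.13 to 0.35), and its PDGFB-NLS against PDGFB-WT ratio was 0.37 (0.18 to 0.56). Cenpi, on chromosome X, had 31.2, 30.8 and 32.3 CPM and the highest centromere ratio in PDGFB-WT against Control, 0.15 (-0.18 to 0.46). Cenpc1, which links Cenpa chromatin to the outer kinetochore, Cenpk and Cenpt had ratios from -0.14 to -0.12 in PDGFB-WT against Control. Cenpk shares its peak with Ppwd1 and Cenpt shares one with Thap11. At the annotated start of Cenpt, inside the gene's outer bounds, the values were 29.98, 22.2 and 31.7 CPM.

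The spindle motor and assembly genes stayed within 0.322 in every comparison but for Cenpe. Cenpe, the kinesin that carries chromosomes to the spindle equator, had 48.6 CPM in Control, 34.1 for PDGFB-WT and 46.4 for PDGFB-NLS. Its ratios were -0.34 (-0.64 to -0.06) in PDGFB-WT against Control and 0.30 (0.01 to 0.60) in PDGFB-NLS against PDGFB-WT. Plk1 had 21.6, 22.8 and 25.8 CPM, the highest ratio of the subgroup in PDGFB-WT against Control (0.24, -0.13 to 0.60) and in PDGFB-NLS against Control (0.27, 0.04 to 0.50). Aurka, the kinase of the spindle poles, had 68.3, 70.7 and 74.0 CPM in a peak shared with Cstf1. Its ratios were 0.22 (0.01 to 0.42), 0.13 (-0.01 to 0.26) and -0.08 (-0.28 to 0.13). In PDGFB-WT against Control, Plk1 and Aurka thus lay above the all-gene median, and Aurkb lay below it.

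Tacc3 and Ckap5, which stabilise spindle microtubules together, had 161, 132 and 151 CPM and 51.4, 39.3 and 49.2 CPM. The Tacc3 ratio in PDGFB-NLS against Control, -0.08 (-0.17 to 0.01), was the lowest of the subgroup, and 95.04% of its counts lay in a peak shared with Tmem129. Per kb of peak the Tacc3 ratio was 0.69 in PDGFB-WT against Control, where it was -0.11 by counts. Kif11, the kinesin that pushes the poles apart, had 64.1, 49.1 and 63.2 CPM. Kif2c, Kif18a and Tpx2, the last an activator of Aurka, had ratios of -0.07, 0.03 and -0.16 in PDGFB-WT against Control. Kif18a shares its peak with Mettl15. The subgroup's range was -0.34 to 0.24 in that comparison and -0.08 to 0.27 in PDGFB-NLS against Control.

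The anaphase-promoting complex subgroup held both the lowest member and the second highest in PDGFB-WT against Control, Pttg1 and Cdc16. Pttg1, encoding securin, the inhibitor of separase, had 36.1 CPM in Control, 22.5 for PDGFB-WT and 29.6 for PDGFB-NLS. Control was the highest library and PDGFB-WT the lowest. Pttg1 had the lowest ratio of all members in both comparisons with Control: -0.51 (-0.87 to -0.17) in PDGFB-WT and -0.27 (-0.47 to -0.08) in PDGFB-NLS. Espl1, separase itself, had 48.1, 38.2 and 48.7 CPM and ratios of -0.16 and 0.03, with 2.78% of its counts in a peak shared with Pfdn5.

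Cdc16, a subunit of the complex, had 21.2 CPM in Control, 25.04 for PDGFB-WT and 30.4 for PDGFB-NLS. Its ratios to Control were 0.41 (0.05 to 0.75) in PDGFB-WT and 0.53 (0.31 to 0.75) in PDGFB-NLS. A second peak was called at its ends in PDGFB-NLS and not in the others. In regions called in all 3 libraries, the PDGFB-NLS against Control ratio was 0.05, and per kb of peak it was -0.22.

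Cdc20, the target of the checkpoint, had 54.1 CPM in Control, 42.7 for PDGFB-WT and 55.0 for PDGFB-NLS. Its ratios were -0.17 (-0.44 to 0.08), 0.03 (-0.12 to 0.19) and 0.22 (-0.04 to 0.49), and each interval included 0. Fzr1, the activator that takes over after anaphase, had 172, 163 and 169 CPM, of which 5.72% lay in a peak shared with Mfsd12 and 4930404N11Rik, and the lowest ratio of the subgroup in PDGFB-NLS against PDGFB-WT, -0.10 (-0.23 to 0.04). Cdc27 and Anapc1, core subunits, had ratios of -0.15 and -0.01 in PDGFB-WT against Control and of -0.06 and 0.07 in PDGFB-NLS against Control.

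Over the whole gene body plus 1 kb at both ends, all 46 members had at least 1 peak in each library. Mad1l1, the longest member, had the most, with 31 peaks in Control, 11 for PDGFB-WT and 48 for PDGFB-NLS. The peak totals of the libraries stood in the same order, at 107627, 57616 and 127094. The Mad1l1 body summed to 230 CPM in Control, 176 for PDGFB-WT and 305 for PDGFB-NLS. Its body ratio was 0.39 for PDGFB-NLS against Control, where the ratio at its ends was 0.01. Every called peak enters the body sums, and no body value in common regions or per kb of peak was computed. For most others the body added little: Bub1 had 1 peak in the body in each library, the same as at its ends. Espl1 went from -0.16 at its ends to 0.03 over the body in PDGFB-WT against Control.

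A CHR match did not separate the members by ratio. In PDGFB-WT against Control, 20 members with a match and 20 without had medians of -0.11 and -0.11. The medians were 0.02 and -0.01 in PDGFB-NLS against Control, and 0.11 and 0.09 in PDGFB-NLS against PDGFB-WT. For CCAAT, 25 members with a match and 15 without had medians of -0.14 and -0.03 in PDGFB-WT against Control. These were 0.03 and -0.02 in PDGFB-NLS against Control, and 0.18 and 0.03 in PDGFB-NLS against PDGFB-WT. The CCAAT differences were not tested. Nuf2 and Pttg1, at opposite ends of the members in PDGFB-WT against Control, both lacked either match in the printed window. For Pttg1, the centre of the peak over the start lay upstream of that window and of the longer promoter entry. This centre was at -331.5 bases from the start in Control, -347.5 for PDGFB-WT and -323.5 for PDGFB-NLS. Sequence upstream of the entry was not searched, so whether a match lies near the centre of this peak was not tested.

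The other genes of the pathway, 90 by a fixed list, were described the same way. In PDGFB-WT against Control, 86 were compared, with a median of -0.03, 7 higher and 15 lower past 0.322. In PDGFB-NLS against Control, 89 were compared, with a median of 0.00, 2 higher and 1 lower. In PDGFB-NLS against PDGFB-WT, 86 were compared, with a median of 0.05, 17 higher and 4 lower. The shares past that size in either direction were 25.6%, 3.37% and 24.4%, against 25.9%, 18.7% and 22% of all genes.

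Haspin, the kinase that marks histone H3 for the passenger complex, had the lowest PDGFB-WT against Control ratio of the listed genes, with values of 33.9 CPM in Control, 16.6 for PDGFB-WT and 35.4 for PDGFB-NLS. Its ratios were -0.86 (-1.28 to -0.47) in PDGFB-WT against Control and 0.95 (0.55 to 1.37) in PDGFB-NLS against PDGFB-WT. Zwilch, the partner of Zw10 and Kntc1, had -0.73 and 0.88, in a peak shared with the ribosomal protein gene Rpl4. Clasp2, a microtubule-stabilising protein, had -0.73 and 0.60, but 0.24 and -0.06 at its transcription starts, and its PDGFB-WT against Control ratio lay just below that of Zwilch.

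In PDGFB-WT against Control the highest ratios of the listed genes were those of Cenps (0.45), Anapc5 (0.44) and Kif23 (0.43). PDGFB-WT had 2 peaks at the ends of Anapc5 and of Kif23 where Control had 1, and per kb of peak their ratios were -0.76 and -0.65. Kif23 was also at -0.24 at its transcription starts. Clasp1 (-0.57), Anapc5 (-0.45) and Tubg1 (-0.40, in a peak shared with Retreg3) were the lowest in PDGFB-NLS against PDGFB-WT. PDGFB-NLS against Control had Cenpw (0.69), Lin9 (0.35) and Anapc7 (0.30) at the top, and Foxm1 (-0.35), Bod1 (-0.29) and Ska1 (-0.23) at the bottom. Cenpw rested on few counts, at 11.9 CPM in Control and 19.1 in PDGFB-NLS. Foxm1, a transcription factor that works with the MuvB complex at CHR promoters, had 73.9 CPM in Control, 40.5 for PDGFB-WT and 57.4 for PDGFB-NLS, in peaks shared with Rhno1 and Tex52. Control and PDGFB-NLS had 3 peaks at the ends of Foxm1 and PDGFB-WT had 1, and per kb of peak the level was highest in PDGFB-WT.

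The libraries also differed in the loci of cell types. Summed over 12 marker genes of oligodendrocyte precursor cells (OPC), gene-body values were 528 CPM in Control, 956 for PDGFB-WT and 876 for PDGFB-NLS, and all 12 genes had a peak in each library. Endothelial markers had 448, 193 and 351 CPM, with no peak at Cldn5, Ly6c1 and Slco1a4 in PDGFB-WT. Oligodendrocyte markers had 838, 378 and 706, with Mag lacking a peak in PDGFB-WT. Microglia or macrophage markers had 762, 453 and 655, with Aif1 and Trem2 lacking one there. Astrocyte markers had 616, 731 and 760, and only Gja1 lacked a peak, in PDGFB-WT. Mural or fibroblast markers had 282, 177 and 288, and neuron markers 256, 224 and 381, with 6 and 4 of 12 lacking a peak in PDGFB-WT. Dcn and Lum had no peak in any library. The PDGFB-WT library had 57616 peaks against 107627 in Control and 127094 in PDGFB-NLS, and a locus without a called peak adds nothing to these sums. Fewer nuclei of a type, less signal per nucleus and peaks not called at lower depth cannot be told apart in them. The part of cell makeup in the ratios above was not tested.

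Each nucleus was grouped by its fragments at marker loci, to see the members in groups that lead in the same marker list. A group asked for at least 3 fragments for 1 list and a ratio of observed to expected of at least 2. Every other list had to be at no more than 0.5 of that ratio. The expected number came from the nucleus's depth and the library's own average, so groups are relative to each library. These are groups by marker loci and not cell types, and most nuclei had no group: 69.4% of those of Control, 96.8% for PDGFB-WT and 83.6% for PDGFB-NLS. In the OPC group the members summed to 2529 fragments per 1000000 in common regions in Control (2260 to 2821, 24 nuclei), 2104 for PDGFB-WT (1785 to 2464, 102 nuclei) and 2643 for PDGFB-NLS (2465 to 2830, 230 nuclei). Over all nuclei the values were 2940, 2517 and 2917. The order of the libraries in the OPC group was that over all nuclei for PDGFB-WT, the lowest, but the intervals of Control and PDGFB-WT overlapped. Nuclei of the OPC group had medians of 6411 fragments in Control, 707 for PDGFB-WT and 1768 for PDGFB-NLS. The rule of 3 fragments thus applied at different depths, and groups of the same name may not hold like nuclei.

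Of the groups with at least 20 nuclei, the OPC group had the lowest value in each library. Its interval overlapped those of the oligodendrocyte, astrocyte and neuron groups in Control, of the astrocyte, neuron and mural or fibroblast groups in PDGFB-NLS, and of every other group in PDGFB-WT. The endothelial group had 3379 fragments per 1000000 in Control (3261 to 3499, 219 nuclei) and 3122 in PDGFB-NLS (2925 to 3328, 226 nuclei). The microglia or macrophage group had 3011 in Control and 3013 in PDGFB-NLS, with 57 of its 172 Control nuclei less than 25% above the ratio of 2 that the grouping asks for. With an observed to expected ratio of 4 in place of 2, that Control group held 5 nuclei. The Control OPC, oligodendrocyte and neuron groups then held 17, 18 and 9, so each of these falls under the minimum of 20. With at least 5 marker fragments in place of 3, the Control OPC and neuron groups held 19 and 16. In PDGFB-WT the OPC, astrocyte, microglia or macrophage and oligodendrocyte groups then held 20, 6, 2 and 4 nuclei. The mural or fibroblast and neuron groups of PDGFB-NLS then held 2 and 9, and its other groups at least 52. In the main setting, oligodendrocyte groups had 2803 in Control and 3095 in PDGFB-NLS, and astrocyte groups 2844 and 2852. Per 1000000 fragments at all gene ends, the endothelial group of Control had 4707 (4543 to 4875) and the OPC group 4513 (4034 to 5034), and those intervals overlapped. In PDGFB-WT the endothelial, mural and neuron groups held 5, 4 and 3 nuclei and are given no reading.

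**Figure D5:**
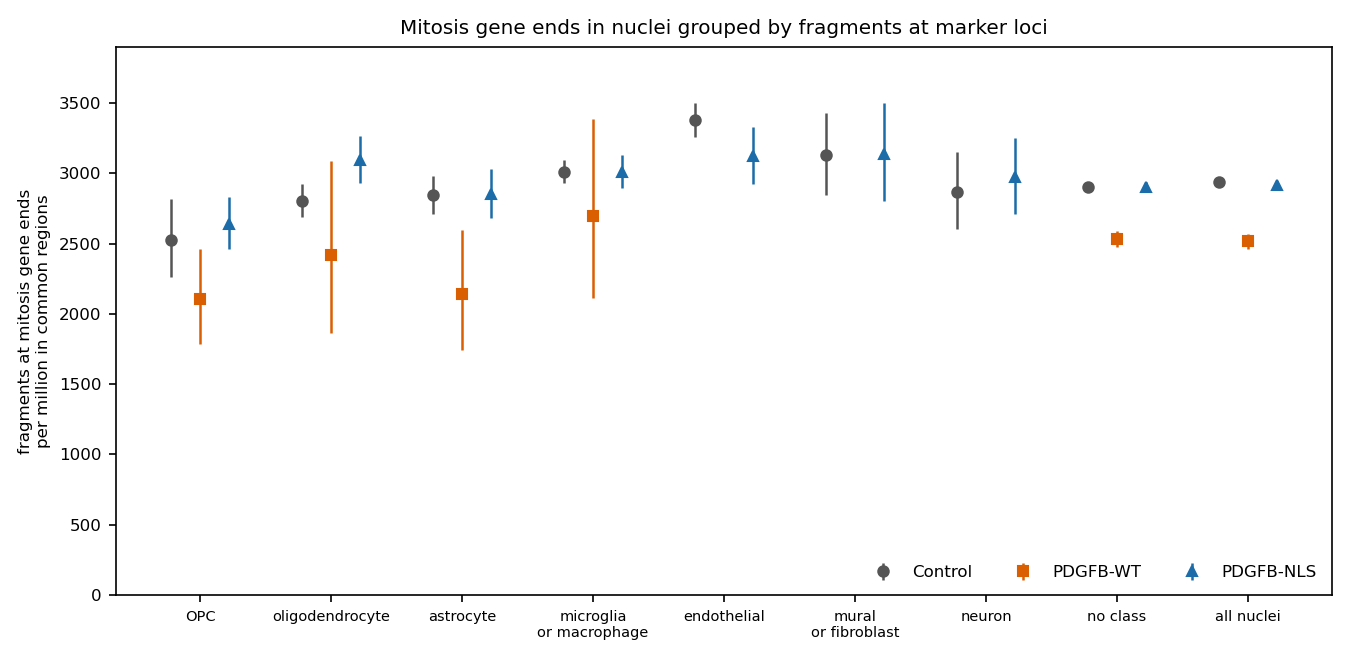
Fragments at the ends of the 44 members per 1000000 fragments in common regions (vertical axis, from 0) in nuclei grouped by marker loci, in nuclei of no group and in all nuclei. Points are libraries and bars exact 95% Poisson counting intervals, and groups under 20 nuclei are not drawn; among all nuclei PDGFB-WT is at 2517, below 2940 and 2917.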

How the data were processed

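Per the file headers, the authors deposited a matrix of raw counts of transposase cuts per peak and barcode for each library, made with cellranger-atac 2.1.0, and per the submitters' processing notes Cell Ranger 8 and mm10 were used. Peaks were called in each library on its own. The deposited barcodes and peak coordinates (columns that hold names and positions) were used as given; the sources used here do not give the settings of peak or cell calling. In the deposited counts, 72.9% to 89.4% of entries equal 2, so most fragments are counted by both ends.

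Barcodes with at least 200 counts were kept (2226 of 2267 in Control, 7441 of 7511 in PDGFB-WT and 10996 of 10996 in PDGFB-NLS), no doublet caller was run, and doublets were not removed. Of 147229 merged regions, 47450 were called in all 3 libraries and held 81.6%, 96.3% and 78.8% of the counts. Counts in peaks within 1 kb of either end of a RefSeq gene (GRCm38.p6) were summed and scaled to 1000000 counts in common regions. Log2 ratios are relative to the median of genes with at least 100 counts in both libraries. Intervals are exact at 95%: Poisson for levels and Clopper-Pearson on the conditional binomial for ratios, both on fragments. Barcoded nuclei were not treated as replicates. Python 3.11.15, numpy 2.4.6, scipy 1.17.1, pandas 2.3.3 and matplotlib 3.10.9 were used, and the steps were tested on simulated data.

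The members and all gene lists were chosen with earlier results of these data known. Values in each library were given for the 4 highest and 4 lowest members of each comparison, the highest and lowest of each subgroup, and Cdc20, Plk1, Aurka, Aurkb, Bub1, Mad2l1, Pttg1 and Cenpa; other members named were chosen for their roles. Of the other pathway genes, the 3 highest and 3 lowest of each comparison were named. Alternatives covered the gene ends and window used, common regions, capped counts, fragments, barcode filters, count minimums, scale, centre and peak length.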

Additional observations from a re-analysis of the deposited data

How the results depend on the processing

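Under all 51 alternatives the median ratio of the members stayed between the medians of the members' lower and upper interval bounds. Those bounds reflect the counting error of a single gene, so they are wide for a median over the members. The member median ran from -0.28 to -0.01 for PDGFB-WT against Control and from -0.03 to 0.01 for PDGFB-NLS against Control. For PDGFB-NLS against PDGFB-WT it ran from 0.02 to 0.24. The number of members past a log2 ratio of 0.322 was less stable, and it left 1.5 times the main count in 15 of 54 alternatives. For PDGFB-WT against Control (8, 2 higher and 6 lower) it was 15 with each peak and barcode capped to 0 or 1 (5 higher, 10 lower), 3 with a minimum of 300 counts, under which 26 members were compared, 18 without taking off the all-gene median (1 higher, 17 lower), 20 per kb of peak (7 higher, 13 lower) and 0 at 1.5-fold. For PDGFB-NLS against Control (1) it was 2 over the gene body, 0 in regions called in all 3 libraries, 3 capped (2 higher, 1 lower), 4 per kb of peak (1 higher, 3 lower), 2 with only peaks at the ends of 1 gene, an alternative chosen after seeing the data, and 0 at 1.5-fold. For PDGFB-NLS against PDGFB-WT (12, 10 higher and 2 lower) it was 4 with a minimum of 300 counts, 20 without taking off the all-gene median (19 higher, 1 lower), 20 per kb of peak (12 higher, 8 lower) and 0 at 1.5-fold. Only for 1.5-fold was the share of all genes past the limit given, above. For the other alternatives it is not given, so these counts are not read as results about the members. The cause of these moves was not tested.

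Of the members past 0.322 in PDGFB-WT against Control, Bub1, Nuf2, Cenpa, Cenph and Pttg1 stayed past it under every alternative that gave a value, and in PDGFB-NLS against PDGFB-WT Bub1, Nuf2, Dsn1, Cenpa and Cenph did. Spc24 stayed past it in 9 of 16 and Cenpf in 12 of 17. In PDGFB-WT, Bub1, Cenpa, Cenph, Pttg1 and Dsn1 had 171, 258, 134, 152 and 144 counts. A minimum of 300 counts therefore gave them no value. For Bub1, Cenpa, Cenph and Pttg1, the transcription start and gene body windows held the same counts as the ends. Those windows are therefore not a separate check of these genes. Per kb of peak the ratio changed sign for 8 of 44 members in PDGFB-WT against Control, 14 in PDGFB-NLS against Control and 8 in PDGFB-NLS against PDGFB-WT; in PDGFB-WT against Control, Cenpf went from -0.32 to 0.48, Tacc3 from -0.11 to 0.69 and Bub1b from -0.09 to 0.57. Among the named ratios past 0.322 it changed sign for Aurkb (0.46), Anapc5 (-0.76), Clasp2 (0.24) and Kif23 (-0.65) in PDGFB-WT against Control, for Cdc16 (-0.22) in PDGFB-NLS against Control, and for Aurkb (-0.42), Cenpf (-0.51) and Clasp2 (-0.34) in PDGFB-NLS against PDGFB-WT. At the transcription start the ratio was 0.24 for Clasp2 and -0.24 for Kif23 in PDGFB-WT against Control, and -0.0575 for Clasp2, PDGFB-NLS against PDGFB-WT. In 2 kb windows it was -0.054 for Kif23, PDGFB-WT against Control. The ratio relative to genes on the same chromosome was also an alternative chosen after seeing the data, and left each count within 1.5 times the main one.

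No paired analysis was possible because each group has 1 library, and leaving out a library removes its group, so that no comparison can be repeated without it. Of 36 alternative values for the marker groups, 5 left the interval of the main value, and the groups behind 4 of those 5 then held under 20 nuclei. The low depth of PDGFB-WT sets the width of its intervals, and differences within them were not detectable at this depth.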

Other observations

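Some of the listed mitotic cyclins, cell cycle kinases, phosphatases and proliferation markers also had low values in the PDGFB-WT library. Of 15 genes, 14 had at least 100 counts in both PDGFB-WT and Control, with a median log2 ratio of -0.11 and a range of -0.70 to 0.07, and 4 of the 14 lay above the all-gene median. Past 0.322 lay 4 genes, all lower in PDGFB-WT (11.8% of all genes were lower past that size): Foxm1, Cdc25c, Cdc25b and Top2a. Foxm1 had 3 peaks in Control and 1 in PDGFB-WT, all within reach of Rhno1 or Tex52 as well, and per kb of peak its ratio changed sign, from -0.70 to 0.59. Per kb, Cdc25c (-0.75), Cdc25b (-0.55) and Top2a (-0.48) stayed lower. Top2a, the topoisomerase that untangles sister chromatids, had 75.1 CPM in Control, 50.2 for PDGFB-WT and 73.3 for PDGFB-NLS, and ratios of -0.41 (-0.65 to -0.18) in PDGFB-WT against Control and 0.40 (0.17 to 0.64) in PDGFB-NLS against PDGFB-WT. Cdc25c, a phosphatase that activates Cdk1, had 79.6, 50.5 and 77.3 CPM, with ratios of -0.49 (-0.73 to -0.25) and 0.47 (0.23 to 0.71). Both genes were lowest in PDGFB-WT. Mki67, encoding the proliferation antigen Ki-67, had 51.5, 44.8 and 51.2 CPM with a ratio of -0.04 (-0.30 to 0.22), and Cdk1, the mitotic kinase, had 47.4, 43.6 and 49.7 CPM with a ratio of 0.05 (-0.22 to 0.30). Ccnb1, encoding cyclin B1, a partner of Cdk1, had 60.2, 45.5 and 61.3 CPM, and its ratio of -0.24 had an interval from -0.50 to 0.01. Top2a, Cdc25c, Mki67, Cdk1 and Ccnb1 were chosen after their values were seen. The part of cell makeup in these values was not tested.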
